A study of Caenorhabditis elegans with 6 samples.

Results

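The nuclear hormone receptor family of *C. elegans* is described here through the genes that carry an *nhr-* name. Nuclear hormone receptors are transcription factors that bind DNA through a zinc-finger domain, and many of them change the transcription of their targets when a small lipophilic molecule occupies a separate ligand-binding domain. The family is greatly expanded in nematodes, mostly through genes related to the mammalian receptor HNF4, and most of these receptors have no known ligand. In *C. elegans*, characterized members act in molting, embryonic development, fat and amino acid metabolism, and the response to foreign compounds. A gene was a member if an array probe set named it alone, with *nhr-8*, *nhr-48*, *nhr-49*, *nhr-86* and *nhr-176* left out, and where a gene had several probe sets the one with the highest mean over the 6 arrays stood for it. This gave 249 genes of the 17118 genes named alone on the array, read by 287 probe sets of 22548. Of the 249, 217 had 1 probe set and 32 had several, with at most 4 for 1 gene. All 249 matched a gene of the RefSeq table of assembly WBcel235, which holds 283 *nhr* genes, and 11 of the 249 are pseudogenes there.

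RNA was measured on 6 Affymetrix whole genome GeneChips for *C. elegans*, 3 from animals exposed to RPW-24 and 3 from animals exposed to its solvent DMSO, with 1 array for each of the biological replicates lettered G, H and I. All animals were whole, wild-type N2 worms, grown on *E. coli* OP50 at 20°C to the late L4 larval stage and then held for 15 hours at 15°C in liquid S-basal complete medium with the same bacteria. The treated group received 70 µM RPW-24, a small molecule that prolongs the life of infected nematodes, and both groups were in 1% DMSO. No pathogen was present, so the comparison is of the compound with its solvent in otherwise unchallenged animals. The values are linear intensities after GC-RMA and quantile normalization, and they share a lowest value of 4.39. A value at 4.39 is a floor and has no order. RNA came from whole animals, so fewer cells of a type and less RNA per cell cannot be told apart.

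Over all probe sets the median intensity was 8.94 to 9.04 on the DMSO arrays and 9.83 to 9.98 on the RPW-24 arrays. The deposited values thus did not share 1 distribution, although quantile normalization is stated for them. Among markers of the tissues of a whole worm, all 4 intestine markers were higher on every RPW-24 array than on any DMSO array. Of all genes, 8.40% were. The summed intensities of the 4 were 38806 to 40673 in DMSO and 42142 to 54585 in RPW-24. In limma 0 of the 4 passed an adjusted p of 0.05, and *ifb-2* came nearest (log2 fold change 1.01, limma, adjusted p = 0.0640). Of 4 germline markers, 3 were lower on every RPW-24 array, where 10.4% of all genes were. The sums of the 4 were 32721 to 35041 in DMSO and 26255 to 30561 in RPW-24. The sum of 3 body wall muscle markers was 5455 to 8330 in DMSO and 8275 to 11949 in RPW-24, and 1 of the 3 was apart. Neuron markers summed to 4718 to 5163 in DMSO and 4550 to 5351 in RPW-24, and 1 of the 4, the SNAP-25 gene *ric-4*, was called higher, with a log2 fold change of 0.50 (limma, adjusted p = 0.0425, and 0.124 with the replicate block, a term for letters G, H and I). Epidermis markers summed to 2117 to 2217 in DMSO and 1832 to 2009 in RPW-24, and 1 of the 4, *lin-26*, was lower on every RPW-24 array. Of the others, *che-14* was at the floor on each array. The 3 pharynx markers summed to only 18.5 in DMSO and 18.5 to 19.6 in RPW-24. The intestine, neuron and epidermis sums came mostly from *vit-2*, *snb-1* and *lin-26*, with DMSO means of 38461, 4673 and 1983. The part of tissue composition in the results on the receptors was not tested.

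Much of the family was at or near the floor. Of the 249 members, 98 (39.4%) sat at the lowest intensity on each of the 6 arrays, against 32.7% of all genes, and 124 (49.8%) were above it on all 6, against 60.7% of all genes. The other 27 were above it on some arrays only, and none of these exceeded 6.71 on any array. On the DMSO arrays of replicates G, H and I, 137, 129 and 124 members were above the floor, and on the RPW-24 arrays 129, 131 and 128 were. The ranges of the groups overlapped, so the number of members above the floor did not separate RPW-24 from DMSO. At a stricter level of 32 the counts were 50, 50 and 48 in DMSO and 63, 58 and 61 in RPW-24, and here every RPW-24 array had more members than any DMSO array. The share of all genes at 32 or more was 42.5% to 42.6% in DMSO and 43.1% to 43.2% in RPW-24. The table also holds repeated values above the floor. Equal to 6 digits after the point, the value of 57 of the 124 members (46.0%) was the same on at least 3 arrays, against 31.6% of all genes above the floor on all 6 arrays, and this held for 0 of the called members. The 3 DMSO values of *nhr-182*, a called member, differed only beyond the third digit after the point.

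Exposure to RPW-24 was accompanied by higher transcript levels of 16 receptor genes and by no called decrease. Groups were compared on the log2 scale with limma, and p-values were adjusted by the Benjamini-Hochberg method over all 22548 probe sets. At an adjusted p under 0.05, 14 of 249 members (5.62%) were higher, where 2.63% of all genes were, and 0 were lower, where 1.08% of all genes were. At the study's thresholds, a change of at least 3-fold with an unadjusted p under 0.025, 12 members (4.82%) were higher against 1.63% of all genes, and 0 were lower against 0.380% of all genes. Both rules called 10 members and either rule called 16. Without regard to a threshold, 31 members (12.4%) were higher on every RPW-24 array than on any DMSO array against 8.40% of all genes, and 5 (2.01%) were lower against 10.4% of all genes. Among genes above the floor on all 6 arrays, the called shares were 11.3% of the 124 members and 4.11% of all genes for higher, and 0 members and 1.77% of all genes for lower.

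Most members showed no called change. The median log2 fold change, RPW-24 over DMSO, was 0 over the 249 members and 0 over all genes. Over the 124 members above the floor on all 6 arrays the median was 0.06, with quartiles of -0.0042 and 0.30, beside a median of -0.02 and quartiles of -0.17 and 0.09 over the 10395 such genes. Of the 124, 79 had a positive and 36 a negative value, and the 63.7% with a positive value stands beside 37.7% of all such genes. In the pairs of arrays G, H and I the medians were 0.02, 0 and 0.06, so the shift of the middle of the family was small and not present in pair H. This median changed sign with the scaling, to -0.045 with arrays centred on their medians and to -0.0021 after a further quantile normalization. Within 2-fold lay 107 of the 124.

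**Figure D1:**
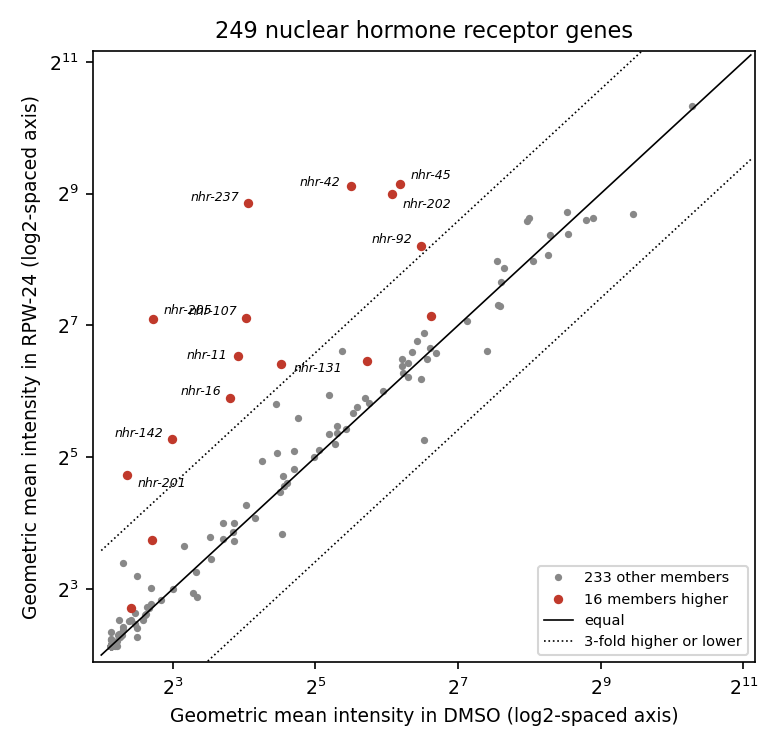
Geometric mean intensity of each of the 249 receptor genes on the 3 DMSO arrays (x axis, log2-spaced) and on the 3 RPW-24 arrays (y axis, log2-spaced), with the line of equal values and lines of 3-fold difference. The 16 called members, in red, all lie above the line of equality, 12 of them above the upper 3-fold line, and no member lies below the lower 3-fold line.

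The 6 members with the largest measured increases were above 7-fold on the deposited values, and each was called by both rules. The size of a fold from a value near the floor depended on that floor: raising each intensity under 32 to 32 gave log2 fold changes of 3.85 for *nhr-237*, 2.10 for *nhr-205* and 2.12 for *nhr-107*, and all 3 stayed called. *nhr-237* read 19.45, 19.45 and 12.01 on the DMSO arrays of replicates G, H and I and 451, 387 and 567 on the RPW-24 arrays. Its 3 DMSO values were low and its 3 RPW-24 values high with no overlap, a 27.9-fold difference (log2 fold change 4.80 ± 0.26 SE, adjusted p = 0.00272). *nhr-205* read 6.03, 7.40 and 6.46 in DMSO, close to the floor, and 134, 129 and 150 in RPW-24. The replicates of each group were tight, and the difference was 20.8-fold (log2 fold change 4.38 ± 0.11 SE, adjusted p = 0.000303). *nhr-42* read 39.6, 54.1 and 43.3 in DMSO and 600, 475 and 593 in RPW-24, so that the lowest treated array, of replicate H, was well above the highest control array. This was a 12.2-fold difference (log2 fold change 3.61 ± 0.16 SE, adjusted p = 0.00165).

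*nhr-107* read 17.14, 14.79 and 17.01 in DMSO and 167, 101 and 158 in RPW-24, again with replicate H lowest in both groups. It was 8.53-fold higher (log2 fold change 3.09 ± 0.22 SE, adjusted p = 0.00576), on a probe set whose name marks it as able to match several transcripts. *nhr-45*, a receptor that acts in the response of *C. elegans* to mitochondrial stress, read 82.6, 79.7 and 58.2 in DMSO and 545, 524 and 637 in RPW-24. The groups were far apart, by 7.80-fold (log2 fold change 2.96 ± 0.17 SE, adjusted p = 0.00297). *nhr-202* read 78.1, 70.4 and 55.9 in DMSO and 564, 436 and 545 in RPW-24, a difference of 7.58-fold with no overlap (log2 fold change 2.92 ± 0.17 SE, adjusted p = 0.00313).

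The next 6 members rose by 3.30-fold to 6.16-fold, and all 6 passed the study's thresholds. *nhr-11* read 12.1, 12.1 and 23.5 in DMSO and 87.6, 93.4 and 98.8 in RPW-24. DMSO replicate I was the highest of its group and still below every treated array, and the difference was 6.16-fold (log2 fold change 2.62 ± 0.30 SE, adjusted p = 0.0222). The adjusted p stayed under 0.05 in 1 of the 6 fits that left out 1 array. With intensities under 32 set to 32 the log2 fold change of *nhr-11* was 1.54, which is under 3-fold. *nhr-201* read 5.26, 5.51 and 4.71 in DMSO, just above the floor, and 33.1, 33.6 and 16.8 in RPW-24, where replicate I was the lowest. Its difference was 5.16-fold (log2 fold change 2.37 ± 0.31 SE, adjusted p = 0.0324). With intensities under 32 set to 32 this became 0.04 on the log2 scale (limma, adjusted p = 0.411), and the call held in 1 of the 6 fits that left out 1 array. *nhr-131* read 22.2, 24.7 and 21.7 in DMSO and 67.6, 91.5 and 99.2 in RPW-24, with every treated array above every control array (3.72-fold, adjusted p = 0.0111). Its adjusted p stayed under 0.05 in 2 of the 6 fits that left out 1 array. Setting intensities under 32 to 32 gave it a log2 fold change of 1.41, also under 3-fold. *nhr-92* read 113, 77.4 and 81.4 in DMSO and 303, 324 and 261 in RPW-24, and was 3.30-fold higher with the groups apart (adjusted p = 0.0173). The name of this probe set marks it as able to match several transcripts. As a mean of its probe sets *nhr-92* had a log2 fold change of 1.24 (limma, adjusted p = 0.0581). On the probe set of highest mean, its adjusted p stayed under 0.05 in 1 of the 6 fits that left out 1 array.

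*nhr-142* and *nhr-16* passed only the study's thresholds. *nhr-142* read 10.76, 4.504 and 10.23 in DMSO and 44.9, 25.1 and 51.2 in RPW-24, and replicate H was lowest in both groups. Its difference of 4.88-fold had a wide 95% interval, 1.03 to 3.54 on the log2 scale (limma, adjusted p = 0.0986). *nhr-16* read 20.4, 11.1 and 11.9 in DMSO and 53.4, 48.5 and 81.5 in RPW-24, which was 4.27-fold with an interval of 1.22 to 2.98 on the log2 scale (limma, adjusted p = 0.0536). In both genes the groups did not overlap. With intensities under 32 set to 32, the log2 fold changes were 0.39 for *nhr-142* and 0.90 for *nhr-16* (limma, adjusted p = 0.411 and 0.203). Neither gene then passed either rule.

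Another 4 members passed the adjusted p with smaller changes. *nhr-79* read 7.20, 7.19 and 5.48 in DMSO and 13.2, 15.1 and 12.3 in RPW-24, all of them low values, and was 2.05-fold higher (adjusted p = 0.0383). *nhr-134* read 50.7, 53.7 and 54.6 in DMSO and 84.92, 86.03 and 94.42 in RPW-24, a 1.67-fold difference between 2 tight groups (adjusted p = 0.0107). *nhr-64*, a receptor tied to fat storage, read 108, 93.4 and 93.7 in DMSO and 141, 150 and 135 in RPW-24, a 1.45-fold difference (adjusted p = 0.0479). Its adjusted p in limma was 0.106 after a further quantile normalization and 0.11 with intensities under 32 set to 32. It stayed under 0.05 in 1 of the 6 fits that left out 1 array. *nhr-182* read 5.35 on each DMSO array and 6.62, 6.51 and 6.56 in RPW-24. Its adjusted p of 0.000184 in limma was the lowest of the family with a difference of only 1.23-fold, at values close to the floor that were nearly the same on each array of a group. With intensities under 32 set to 32, *nhr-182* and *nhr-79* had a log2 fold change of 0.

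**Figure D2:**
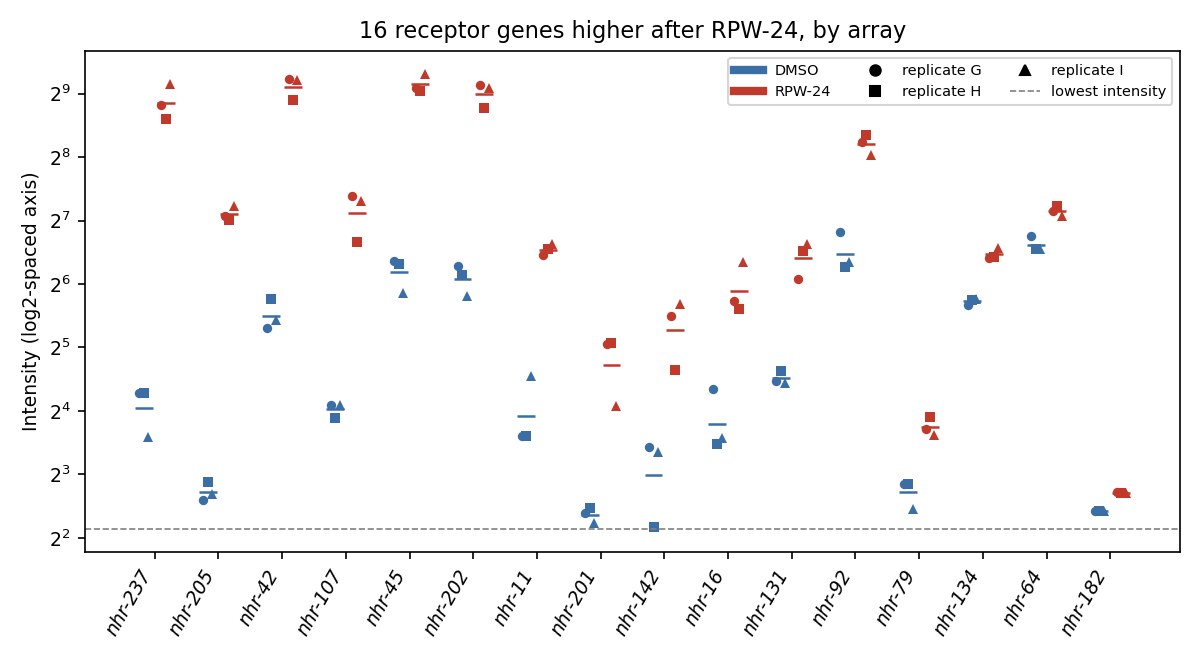
Intensity on each array (y axis, log2-spaced) of the 16 receptor genes higher after RPW-24, ordered by log2 fold change, with circles, squares and triangles for replicates G, H and I, blue for DMSO and red for RPW-24. Short lines are geometric means and the dashed line is the lowest intensity of 4.39, and in each gene all 3 red points lie above all 3 blue points.

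Several features were shared by the 16 called members. In each, all 3 RPW-24 arrays were above all 3 DMSO arrays, and so each was also higher within all 3 pairs of arrays with the same letter. The 16 were chosen on these same values, so this separation is no further support for the calls. For 1 gene, an exact two-sided permutation test with 3 arrays a group cannot give a p below 0.1. Smaller p-values thus rest on the distribution that a t-test assumes and, in limma, also on variance shared across probe sets. An ordinary t-test on log2 values, which shares no variance, had 10 members higher at an adjusted p under 0.05. The DMSO mean of 10 of the 16 was under 32, and so was the RPW-24 mean of 3 of them. On the RPW-24 arrays the lowest of the 3 values came from replicate H in 9 of the 16 genes, from I in 4 and from G in 3. Of the 16, 3 were read by a probe set whose name marks it as able to match several transcripts. None of the 16 is a pseudogene in the RefSeq table.

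The letter of a replicate marks animals exposed side by side, and a model with a term for that letter called fewer members on the adjusted p. In that model with the replicate block 2 of the 14 members stayed under an adjusted p of 0.05, *nhr-205* (0.0299) and *nhr-182* (0.0256), while the study's thresholds still called 12. Those of *nhr-42*, *nhr-202*, *nhr-237* and *nhr-45* were 0.0638, 0.0620, 0.0756 and 0.0775. Over all called members but *nhr-205* and *nhr-182*, with *nhr-142* and *nhr-16* included, the adjusted p lay between 0.0515 for *nhr-107* and *nhr-142* and 0.192 for *nhr-16* in the block fit with limma.

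A further 12 members were higher at an unadjusted p under 0.05 without passing either rule. Their log2 fold changes ran from 0.36 for *nhr-228* to 1.36 for *nhr-21*. *nhr-21* read 19.43, 27.99 and 19.06 in DMSO and 68.2, 42.6 and 60.6 in RPW-24 (limma, adjusted p = 0.0767). *nhr-204* read 50.2, 32.5 and 43.5 in DMSO and 80.4, 93.3 and 127 in RPW-24 (log2 fold change 1.25, limma, adjusted p = 0.0904). *nhr-133* read 27.8, 28.9 and 24.3 in DMSO and 57.8, 48.8 and 40.5 in RPW-24 (log2 fold change 0.85, limma, adjusted p = 0.0760). The groups of these 3 genes did not overlap, with *nhr-21* lowest in replicate H and *nhr-133* lowest in replicate I of the treated arrays. In all, 28 members were higher at an unadjusted p under 0.05 in limma, where 7.10% of all genes were. In an ordinary unpaired t-test on linear intensities, called here the methods' t-test, 26 were, where 6.05% of all genes were.

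No member was called lower by limma or by the methods' t-test. At an unadjusted p under 0.05, 3 members were lower in limma, where 8.20% of all genes were, and 1 in the methods' t-test, where 6.74% of all genes were. Another count, of groups that do not overlap, found 5 members with all RPW-24 arrays below all DMSO arrays. *nhr-137* read 130, 128 and 47.1 in DMSO and 35.5, 42.6 and 37.4 in RPW-24. Its log2 fold change of -1.27 (95% interval -2.47 to -0.06, limma, adjusted p = 0.307) rested on DMSO replicates G and H, since DMSO replicate I was near the treated arrays. Without DMSO replicate I the value was -1.75 and passed an adjusted p of 0.05. *nhr-14*, an HNF4-related receptor that acts in iron uptake, read 29.37, 23.02 and 18.14 in DMSO and 15.1, 15.2 and 12.6 in RPW-24 (log2 fold change -0.69, limma, adjusted p = 0.209). The other 3 were *nhr-101* (log2 fold change -0.80, limma, adjusted p = 0.361), *nhr-144* (-0.47, adjusted p = 0.478) and *nhr-71* (-0.20, adjusted p = 0.151).

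Receptors with a known role were counted on lists of 2 to 10 measured genes, too few for 0 or 1 call to be set against the 5.62% called over the family. Of 8 receptors conserved between nematodes and other animals, 0 were called in limma and 0 had an unadjusted p under 0.05 in limma or in the methods' t-test, and 5 were at the floor on all 6 arrays, namely *nhr-41*, *nhr-67*, *nhr-85*, *nhr-91* and *nhr-111*. *nhr-25*, the relative of fly FTZ-F1 that acts in molting and the epidermis, was above the floor on 1 array only. *nhr-23*, the relative of ROR that drives molting, read 365, 364 and 388 in DMSO and 251, 358 and 424 in RPW-24. Its treated arrays lay on both sides of the control arrays (log2 fold change -0.15, 95% interval -0.69 to 0.40). *nhr-6*, the relative of NR4A receptors that acts in the spermatheca, had a log2 fold change of -0.09.

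Of 8 receptors with a role in development, of which *nhr-6*, *nhr-23*, *nhr-25*, *nhr-67* and *nhr-85* were also among the conserved ones, 0 were called in limma and 0 had an unadjusted p under 0.05 in limma or the methods' t-test. *nhr-2*, which acts in the embryo, read 236, 188 and 158 in DMSO and 167, 157 and 148 in RPW-24, and the groups overlapped (log2 fold change -0.29, limma, adjusted p = 0.560). *nhr-40*, which acts in muscle development, had a log2 fold change of 0.06, and *nhr-60*, which acts in seam cells, was at the floor on all 6 arrays.

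All 10 measured receptors with a role in metabolism were above the floor on all 6 arrays, and 1 of the 10, *nhr-64*, was called. The median log2 fold change of the 10 was -0.0090, with 5 positive and 5 negative values. *nhr-114*, which acts in the response to vitamin B12 and diet, read 681, 484 and 1054 in DMSO and 349, 398 and 508 in RPW-24. The highest treated array was above the lowest control array, and the log2 fold change was -0.77 (95% interval -1.65 to 0.12, limma, adjusted p = 0.410). *nhr-66*, a partner of the fat regulator NHR-49, read 1128, 1197 and 1428 in DMSO and 1509, 1222 and 1162 in RPW-24, with full overlap (log2 fold change 0.05, 95% interval -0.33 to 0.43). *nhr-10* and *nhr-68*, which turn on an alternative route of propionate breakdown, had log2 fold changes of -0.07 and 0.20, and *nhr-80*, which acts on fatty acid desaturases, had 0.33. Those of *nhr-13*, *nhr-69* and *nhr-76* were -0.26, 0.18 and -0.07.

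Of 2 receptors tied to cellular stress, *nhr-45* was called and *nhr-57*, a target of the hypoxia factor HIF-1, was not. *nhr-57* read 31.7 on each DMSO array and 33.3, 31.7 and 31.7 in RPW-24. The contrast of these values with the 7.80-fold increase of *nhr-45* was not itself tested.

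Receptors outside the 249 were looked at in the same way. Of the 5 left-out receptors, *nhr-86*, an HNF4-related receptor of the intestine, was called higher by 0.33 on the log2 scale, from 544, 547 and 559 in DMSO to 652, 704 and 722 in RPW-24 (limma, adjusted p = 0.0344, and 0.114 with the replicate block). *nhr-8*, a receptor in cholesterol balance and resistance to toxins, had a log2 fold change of 0.43 and *nhr-49*, a main regulator of fat use, had 0.0059, and neither was called (limma, adjusted p = 0.526 and 1). Those of *nhr-48* and *nhr-176* were 0.09 and 0.71 with no call. Of 5 nuclear receptors without an *nhr* name, *daf-12*, the receptor for the steroid dafachronic acid, had a log2 fold change of 0.17 and *sex-1* of -0.04, and *fax-1*, *odr-7* and *unc-55* were at the floor on all 6 arrays. Of these 5, 0 were called in limma, and 0 had an unadjusted p under 0.05 in limma or the methods' t-test.

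Genes that work with the receptors were counted in the same way. Of 6 genes tied to the dafachronic acid pathway, only some of which make the ligand of DAF-12, 0 were called in limma. None had an unadjusted p under 0.05 in limma or the methods' t-test. At the floor on all 6 arrays were 3 of the 6, with the synthetic enzyme *daf-9* among them. Mediator is the complex through which nuclear receptors reach RNA polymerase II. Of 25 measured Mediator genes, 0 were called in limma, 0 were higher and 8 lower at an unadjusted p under 0.05, and 5 were lower in the methods' t-test. All 25 were above the floor on all 6 arrays, and of all such genes 13.4% were lower at that p in limma. With so few genes, 0 calls cannot be told from the shares called over all genes. Their log2 fold changes ran from -0.50 to 0.15 with a median of -0.14, and *mdt-15*, the subunit that NHR-49 and other receptors bind, had -0.09 (limma, adjusted p = 0.818).

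Where a called gene was read by several probe sets, these mostly gave the same reading. The second probe sets of *nhr-45*, *nhr-11* and *nhr-107* gave log2 fold changes of 2.83, 3.03 and 2.80 (limma, adjusted p = 0.0119, 0.00474 and 0.0479, and with the replicate block 0.0775, 0.0670 and 0.193), beside 2.96, 2.62 and 3.09 on the probe sets of highest mean. The second probe set of *nhr-92* read 4.402 on each DMSO array and 10.7, 8.01 and 4.74 in RPW-24, near the floor, with a log2 fold change of 0.75 (limma, adjusted p = 0.392). *nhr-88* was not called by its probe set of highest mean, which read 217.1, 207.6 and 175.97 in DMSO and 217, 240 and 250 in RPW-24 (log2 fold change 0.24, limma, adjusted p = 0.410). Another probe set of *nhr-88*, of a type that can match several transcripts, read 17.2, 21.2 and 17.1 in DMSO and 58.29, 60.29 and 64.05 in RPW-24 (log2 fold change 1.72, limma, adjusted p = 0.00375, and 0.0705 with the replicate block), and its other probe sets gave 0.44 and 0.28. The value for *nhr-88* thus depended on the probe set. *nhr-97* had a log2 fold change of 0.62 (limma, adjusted p = 0.0614) on one probe set and of 0.0058 on the other, which read 9.96 to 10.1 on all arrays.

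**Figure D3:**
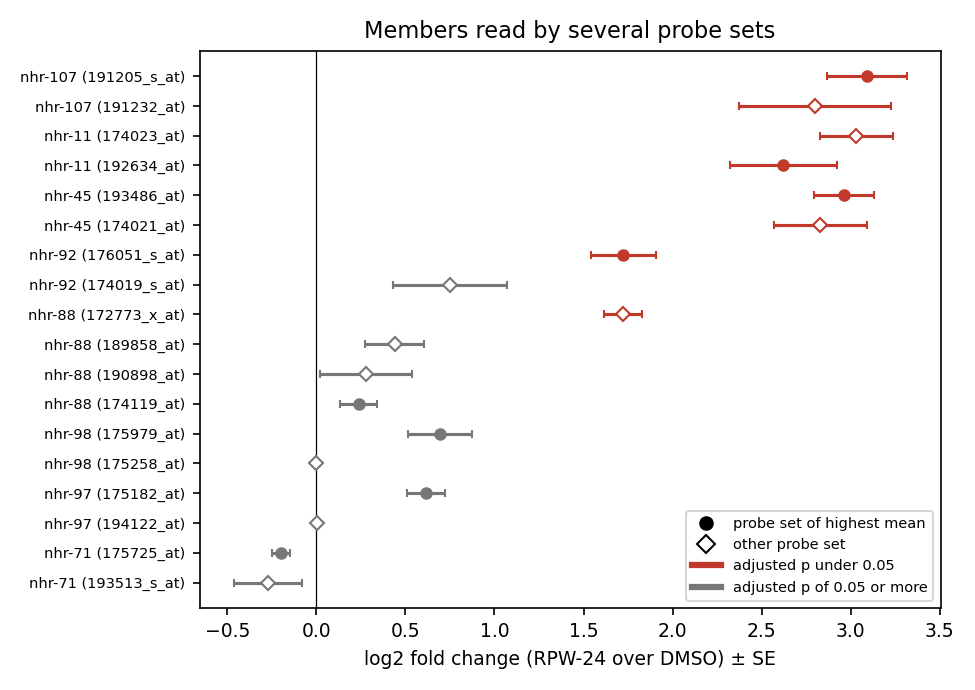
Log2 fold change, RPW-24 over DMSO, with its standard error (x axis) for each probe set of the members with several probe sets of which at least 1 had an unadjusted p under 0.05 in limma. Filled circles mark the probe set of highest mean and open diamonds the others, in red at an adjusted p under 0.05, and the probe sets of *nhr-45*, *nhr-11* and *nhr-107* lie between 2.62 and 3.09 while those of *nhr-88* lie between 0.24 and 1.72.

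The receptor genes are crowded on chromosome V, and so were the called ones. Chromosome V holds 162 of the 249 members (65.1%) and 11 of the 16 called members. Chromosome IV holds 27 members and 2 called members (*nhr-11* and *nhr-92*), chromosomes I, II and X hold 17, 13 and 22 members with 1 called member each (*nhr-64*, *nhr-16* and *nhr-45*), and chromosome III holds 8 members with none called. Chromosome V thus held most of the called genes and most of the family alike.

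Many receptor genes lie side by side, with no other protein-coding gene between them in WBcel235. Of the members, 116 (46.6%) lay in 44 such runs, and 9 of the 16 called members did. The 7 runs with a called member held 29 members in all, of which 20 were not called, 15 of these being above the floor on all 6 arrays. A call in one receptor gene thus did not extend to all of its neighbors.

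A pair of runs held 2 called members each. In the first, *nhr-202* and *nhr-201* are neighbors and had log2 fold changes of 2.92 and 2.37, and next to them *nhr-203* read 5.03, 5.03 and 4.82 in DMSO and 12.8, 6.15 and 14.6 in RPW-24 (log2 fold change 1.08, limma, adjusted p = 0.266). After *nhr-203* came *nhr-98*, with 0.69 (limma, adjusted p = 0.160), and *nhr-123*, above the floor on 1 array, with -0.01. The values were smaller away from the called pair, and this order was not tested. In the second run *nhr-107* and *nhr-42* are neighbors with 3.09 and 3.61, while *nhr-161* had 0.14 and *nhr-163*, *nhr-139*, *nhr-140* and *nhr-162* had 0.00. Of these, *nhr-162* was at the floor on all 6 arrays and *nhr-140* was above it on 1 only, so their values cannot show a change below the floor. *nhr-163* and *nhr-139* were above it on all 6. Their standard errors were 0.00013 and 7.8e-05, near the 6.6e-05 of *nhr-162*, so their values hardly varied between arrays and say little about a change.

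In the other 5 runs a single member was called. *nhr-237*, with 4.80, lay between *nhr-110* (0.17, limma, adjusted p = 0.731) and *nhr-238* (0.29, adjusted p = 0.424). *nhr-205*, with 4.38, lay next to *nhr-12*, which read 257, 236 and 277 in DMSO and 459, 315 and 432 in RPW-24 (log2 fold change 0.63, limma, adjusted p = 0.169). *nhr-92*, with 1.72, lay next to *nhr-122*, which read 33.5, 40.8 and 36.3 in DMSO and 52.7, 71.1 and 61.5 in RPW-24 (log2 fold change 0.74, limma, adjusted p = 0.0841). In both of these neighbors the groups were apart without a call. *nhr-134*, with 0.74, lay in a run of 7 whose other members had log2 fold changes of -0.01 to 0.14. The lowest of these, *nhr-126*, was above the floor on 1 array only. *nhr-109*, in the run of *nhr-16*, had 0.18.

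**Figure D4:**
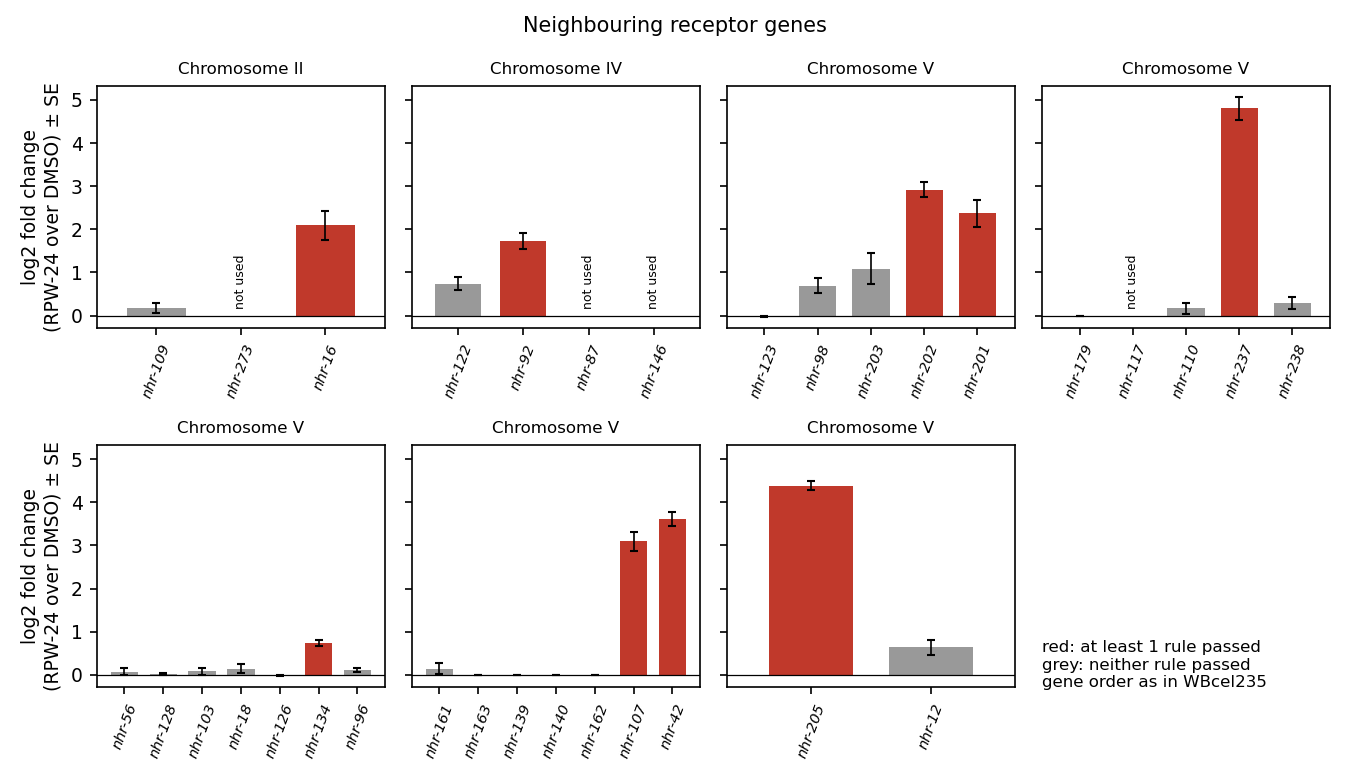
Log2 fold change, RPW-24 over DMSO, with its standard error (y axis) for the 7 runs of neighboring receptor genes that hold a called member, in their order on the chromosome. Red bars are members that passed at least 1 rule, gray bars passed neither, genes marked not used have no probe set of their own in the comparison, and in 5 of the 7 runs a single bar is red.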

How the data were processed

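Transcript levels were measured in whole wild-type worms on 6 Affymetrix arrays, 3 for RPW-24 and 3 for DMSO. The authors processed the scans with GC-RMA in GenePattern version 2.0, with quantile normalization, and deposited 1 linear intensity per probe set and array without pooling. Which release of GC-RMA they used is not stated in the sources at hand. The values have a common floor and repeats above it, folds of dim genes depend on that floor, and quantile normalization hides a change in total RNA. The medians over all probe sets still differed between the groups in the deposited values. The precision is limited by having 3 arrays in a group, since arrays carry no depth.

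The table holds 22625 probe sets, of which 77 are controls and were dropped. Of the other 22548, 20766 named 1 gene in the array's annotation, 887 several and 895 none. The annotation lists 14 *nhr* probe sets under several entries, which were left out of the 249. The members and lists were chosen with earlier results of these data known. Log2 intensities were fitted by lmFit and eBayes of limma 3.58.1 under R 4.3.3, with a variance trend and without a block or filter. The script was tested on simulated data. The methods' t-test here was an ordinary unpaired t-test with equal variances on linear intensities. The paper names a modified t-test without giving its form, so its p-values may differ from these. Tables and plots were made in Python 3.11.15 with matplotlib 3.10.9. RefSeq's WBcel235 table served for names, chromosomes and neighbors, and since the files name no build, no coordinates are given.

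The genes named were called members, members on lists by role, members with several probe sets that differ in call, and neighbors of called members. *nhr-182*, *nhr-21*, *nhr-204*, *nhr-133*, *nhr-228* and the 5 members with lower values were named after their values were seen. The replicate letters pair the arrays, because the submitters state that treatments of a replicate ran side by side. Over 13981 probe sets above the floor, deviations from group means correlated at 0.0881, 0.144 and 0.138 within letters G, H and I and at -0.0944 to -0.0323 between letters. The alternatives tried were a replicate block, leaving out each array, other scalings, floors and filters, other tests and thresholds, and other choices among probe sets. The study's RNAi, qRT-PCR and survival experiments were not analysed here.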

Additional observations from a re-analysis of the deposited data

How the results depend on the processing

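The count of 14 members higher at an adjusted p under 0.05 became 27 with each array centred on the median of probe sets above the floor, 22 at an adjusted p under 0.1, 7 by the methods' t-test and 2 with the replicate block. Leaving out 1 array gave 7 to 11, with 7 without DMSO replicate H and 8 without DMSO replicate I. The other alternatives gave 10 to 17, some of them over fewer than the 249 members. Of the 14, 7 members, *nhr-42*, *nhr-45*, *nhr-107*, *nhr-182*, *nhr-202*, *nhr-205* and *nhr-237*, passed without each array in turn, while *nhr-79* lost its call each time. The count of 0 lower became 151 by centring, which shifts all log2 fold changes by -0.10 and so calls 98 members at the floor on all arrays and 24 more at the floor on some. It became 2 by further quantile normalization, 1 with the mean log2 filter of 5 and the replicate block together, an alternative chosen after seeing the data, and 0 to 1 when 1 array was left out. At the study's thresholds, 12 higher became 7 with intensities under 32 set to 32, and 0 lower became 0 to 1, the 1 being *nhr-137* without DMSO replicate I. The block left the counts at the study's thresholds as they were. The mean log2 filter of 5, which genes high in 1 group alone can pass, left 56 members. Of these, 17 were higher without the block and 16 with it. Only 10 of the 14 members called in the main fit were among the 56. The median log2 fold change of 0.06 turned to -0.045 by centring and -0.0021 by quantile normalization, and was 0 with the floor of 32. Over the 56 members with a mean log2 intensity of at least 5 it was 0.16, with or without the block. The share of members above the floor, 52.1% on average, was 22.1% at 32 or more.

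No called member reversed under any alternative. Uncalled members did: *nhr-40* had -0.046 by centring, -0.14 by quantile normalization, -0.054 as a mean of its probe sets and -0.17 without probe sets that match several transcripts. *nhr-66* had -0.055 by centring and -0.059 as a mean of probe sets, and *nhr-57* had -0.081 by centring and -0.16 by quantile normalization. With 1 array left out, log2 fold changes ran from -0.025 to 0.11 for *nhr-40*, -0.063 to 0.15 for *nhr-66*, -0.24 to 0.041 for *nhr-10*, -0.14 to 0.015 for *nhr-6* and -0.31 to 0.065 for *nhr-23*. The causes were not tested. Members near the floor, 10 of the 16 called ones with a DMSO mean under 32, have folds that depend on where the floor is set.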

Other observations

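*nhr-62*, which acts in the longevity of animals on a restricted diet, stood outside the 249 because the array's annotation lists its probe set under a pair of entries of the same name. It read 11.3, 16.3 and 10.9 in DMSO and 122, 56.7 and 44.8 in RPW-24. The groups did not overlap, and RPW-24 replicate G was the highest (log2 fold change 2.43, limma, adjusted p = 0.0724).

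A pair of probe sets is shared by *nhr-88* and *ZC239.1*. They gave log2 fold changes of 1.62 (limma, adjusted p = 0.0422, and 0.155 with the replicate block) and 1.15 (adjusted p = 0.203), and the first read 51.9, 60.9 and 52.5 in DMSO and 129, 163 and 229 in RPW-24. Which of the genes these values belong to was not tested.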
